A study of Homo sapiens with 16 samples.

Results

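The transcripts of 10 genes that encode or oppose the Polycomb and Trithorax machinery were followed across RNA-seq of the acute myeloid leukemia (AML) cell line KG-1. The genes were EZH1, EZH2, EED and SUZ12 of Polycomb repressive complex 2, BMI1 of Polycomb repressive complex 1, KMT2A (MLL) and MEN1 (menin), and DOT1L, ASXL1 and KDM6B. They were chosen by symbol, and each matched 1 Ensembl identifier among the 43836 genes of the counts table. All 10 had counts in every library and were tested in every comparison.

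Polycomb repressive complex 2 (PRC2) methylates lysine 27 of histone H3, a mark of silenced genes, and Polycomb repressive complex 1 (PRC1) binds that mark and ubiquitinates histone H2A. MLL proteins methylate lysine 4 of histone H3 at active genes, and menin tethers MLL to chromatin. In some forms of myeloid leukemia MLL, menin and the lysine 79 methyltransferase DOT1L are known for maintaining HOXA and MEIS1 expression, and EZH2 and ASXL1 are recurrently mutated. Whether the former holds in KG-1 was not tested.

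The 16 libraries formed 8 conditions of 2 libraries each. By the study's methods, control cells carried a non-target shRNA and FOXM1-KD cells an shRNA against FOXM1. Both were delivered by lentivirus and kept as puromycin-selected populations. All 16 libraries are labelled KG-1, so by the labels every condition shares the line. The titles name the MK-2206 libraries control, while the study describes KG-1 cells either treated with MK-2206 or transduced. That the MK-2206 cells share transduction and selection is therefore assumed here. Control cells were given 0.3% DMSO (the solvent), 50 μM STL427944 (a FOXM1 inhibitor), 0.75 μM AraC (cytarabine) or 100 nM venetoclax (a BCL-2 inhibitor), each for 48 h, or 30 μM MK-2206 (an allosteric AKT inhibitor) for 24 h. FOXM1-KD cells were given DMSO, AraC or venetoclax at the same doses and times. MK-2206 and its DMSO reference therefore differ in drug and in time, and the contributions of drug and time cannot be told apart. The DMSO and STL427944 libraries carry no replicate number in the labels and are called library 1 and 2 here by name only. Nothing in the labels says that libraries of a condition came from separate transductions, so p-values measure the spread between these libraries.

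Several libraries stood apart from their labels or from their partners, and this touches most results below. Total counts ran from 7351755 to 21362546, with the lowest values in the MK-2206 libraries, where mitochondrial transcripts took 6.68% and 18.4% of counts. CD34, the defining surface marker of KG-1, had 12483 to 28951 counts in the 8 control libraries without MK-2206, 0 to 4 counts in the 6 FOXM1-KD libraries, and 7 and 18 counts after MK-2206. Mean Pearson correlations of log2 levels over pairs of libraries were 0.615 to 0.656 between MK-2206 and the FOXM1-KD groups, 0.334 to 0.353 between MK-2206 and the other control groups, 0.558 to 0.611 between the FOXM1-KD and those control groups, and 0.938 to 0.995 among those control groups. Leaving out the Y chromosome, 52 protein-coding genes had at least 10 CPM in all 8 control libraries without MK-2206 and 0 counts in all 6 FOXM1-KD libraries, and 35 the reverse. The same comparison with the MK-2206 libraries gave 11 and 61 genes. Whether all libraries hold the line on their label was not tested, and knockdown or MK-2206 and any such difference between the libraries cannot be told apart. The 4 granulocytic markers (MPO, ELANE, AZU1, PRTN3) summed to 0.485 to 12.5 CPM in control cells, 1810 to 14200 CPM in FOXM1-KD cells and 417 to 597 CPM after MK-2206. The 5 monocytic markers summed to 6.3 to 40.7, 552 to 2710 and 16.3 to 16.5 CPM in the same order, mostly from LYZ, while FCN1 had at most 4 counts in any library. The 6 KG-1 markers summed to 2200 to 3030, 1130 to 1610 and 190 to 263 CPM, and they did not move together. In FOXM1-KD cells KIT was at most 1.12 CPM against 17.1 to 45.5 CPM in control cells and HLA-DRA was 23.7 to 214.6 against 686.3 to 1062 CPM. SPN (671.4 to 1333 against 379.5 to 489.8 CPM) and CD33 (88.4 to 102.0 against 19.0 to 54.9 CPM) were higher there, and the PTPRC ranges overlapped. The 3 erythroid markers summed to at most 2.53 CPM and the 2 lymphoid markers to at most 8.56 CPM, both in control cells. The part of these differences in the results on the 10 genes was not tested, and in bulk RNA fewer cells of a type and less RNA per cell cannot be told apart. FOXM1 itself, the knockdown target, measured 140.0 and 138.2 CPM in control cells with DMSO and 48.8 and 81.8 CPM in FOXM1-KD cells, whereas with AraC it measured 180.8 and 156.1 CPM against 121.3 and 113.8 CPM. The log2 differences were -1.08 ± 0.28 (adjusted p = 0.0560) with DMSO, -0.56 ± 0.19 (adjusted p = 0.0124) with AraC, which is under 2-fold, and -1.20 ± 0.39 (adjusted p = 0.0113) with venetoclax.

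The promoters of EZH2, SUZ12 and BMI1 are shown because these genes gave the clearest differences among the Polycomb subunits. Each runs 5′ to 3′ from RefSeq (GRCh38.p14) over 260 bases, of which the last 10 are transcribed. Capitals mark letters of the motifs searched on both strands, namely the E2F site (TTTGGCGC, TTTCCCGC or TTTCGCGC), the cell cycle homology region (TTTGAA or TTCGAA), the forkhead core (TGTTTAC) and the CCAAT box (CCAAT). The windows lie at chr7:148884282-148884541 on the minus strand for EZH2, at chr17:31936757-31937016 on the plus strand for SUZ12, and at chr10:22320849-22321108 on the plus strand for BMI1.
EZH2: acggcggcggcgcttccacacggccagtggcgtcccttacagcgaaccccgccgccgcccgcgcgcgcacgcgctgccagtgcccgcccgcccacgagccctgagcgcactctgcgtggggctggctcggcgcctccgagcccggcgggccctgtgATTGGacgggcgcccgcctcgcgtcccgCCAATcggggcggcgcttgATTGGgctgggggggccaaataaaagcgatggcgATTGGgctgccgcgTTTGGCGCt
SUZ12: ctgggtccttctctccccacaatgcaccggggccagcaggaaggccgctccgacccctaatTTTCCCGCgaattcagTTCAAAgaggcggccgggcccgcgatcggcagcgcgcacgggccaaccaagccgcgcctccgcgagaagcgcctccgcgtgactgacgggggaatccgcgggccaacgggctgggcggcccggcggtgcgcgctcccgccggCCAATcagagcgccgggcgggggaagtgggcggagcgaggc
BMI1: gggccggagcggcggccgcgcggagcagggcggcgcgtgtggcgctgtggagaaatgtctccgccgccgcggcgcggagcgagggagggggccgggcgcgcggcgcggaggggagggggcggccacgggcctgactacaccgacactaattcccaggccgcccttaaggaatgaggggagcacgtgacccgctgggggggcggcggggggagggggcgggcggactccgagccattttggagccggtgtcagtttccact

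The EZH2 window shown held 4 CCAAT boxes and 1 E2F motif that begins at base 2 after the start, and the SUZ12 window held 1 E2F, 1 cell cycle homology and 1 CCAAT motif. The BMI1 window shown held none of these letters. EZH2 and BMI1 each have a second RefSeq window, and neither of these held any of the motifs. No motif overlapped another in the windows searched. Among all 35116 RefSeq windows of 300 bases, 2.74% held an E2F motif, 16.4% a cell cycle homology motif, 3.42% the forkhead letters and 34.6% a CCAAT box. In the 15 windows found for 9 of the 10 genes, the forkhead letters occurred once, in EZH1 at base 39 after the start, and neither KDM6B nor KMT2A had a match. DOT1L had no entry.

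In control cells with DMSO the levels per kilobase of exon spanned from SUZ12 to EZH2. The length used is that of all annotated exons of a gene (10.77 kb for EZH2), not of the transcripts expressed. The order of the genes and the ratios between genes therefore depend on the annotation. Before division by length, mean EZH2 (42.3 CPM) lay above EED (38.0 CPM) and KDM6B (40.3 CPM). SUZ12, a structural subunit of PRC2, stood at 31.6 ± 1.00 CPM per kb (SD, n = 2), followed by BMI1 at 26.1 ± 5.68 and DOT1L at 17.2 ± 1.02. MEN1 (14.8 ± 0.314), ASXL1 (14.1 ± 0.112) and KMT2A (13.2 ± 0.535) followed closely on the same scale. EZH1 measured 9.53 ± 0.606, KDM6B 5.45 ± 0.697 and EED 5.43 ± 0.0647, and EZH2, the catalytic subunit of PRC2, was lowest at 3.92 ± 0.191 CPM per kb. The SD ranges overlapped between SUZ12 and BMI1 and between KDM6B and EED, and not between the other neighbours. After MK-2206 the order was led by DOT1L (50.2 ± 10.0), KDM6B (45.8 ± 8.86) and EZH2 (26.1 ± 3.20), and closed by BMI1 (3.51 ± 0.503) and EED (2.63 ± 0.550), with overlapping ranges between DOT1L and KDM6B and between BMI1 and EED. In FOXM1-KD cells with DMSO, SUZ12 remained highest at 34.0 ± 1.08 CPM per kb, EZH2 stood above KMT2A and EZH1 at 11.5 ± 0.354, and BMI1 stood above KDM6B alone at 5.86 ± 0.464.

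**Figure D1:**
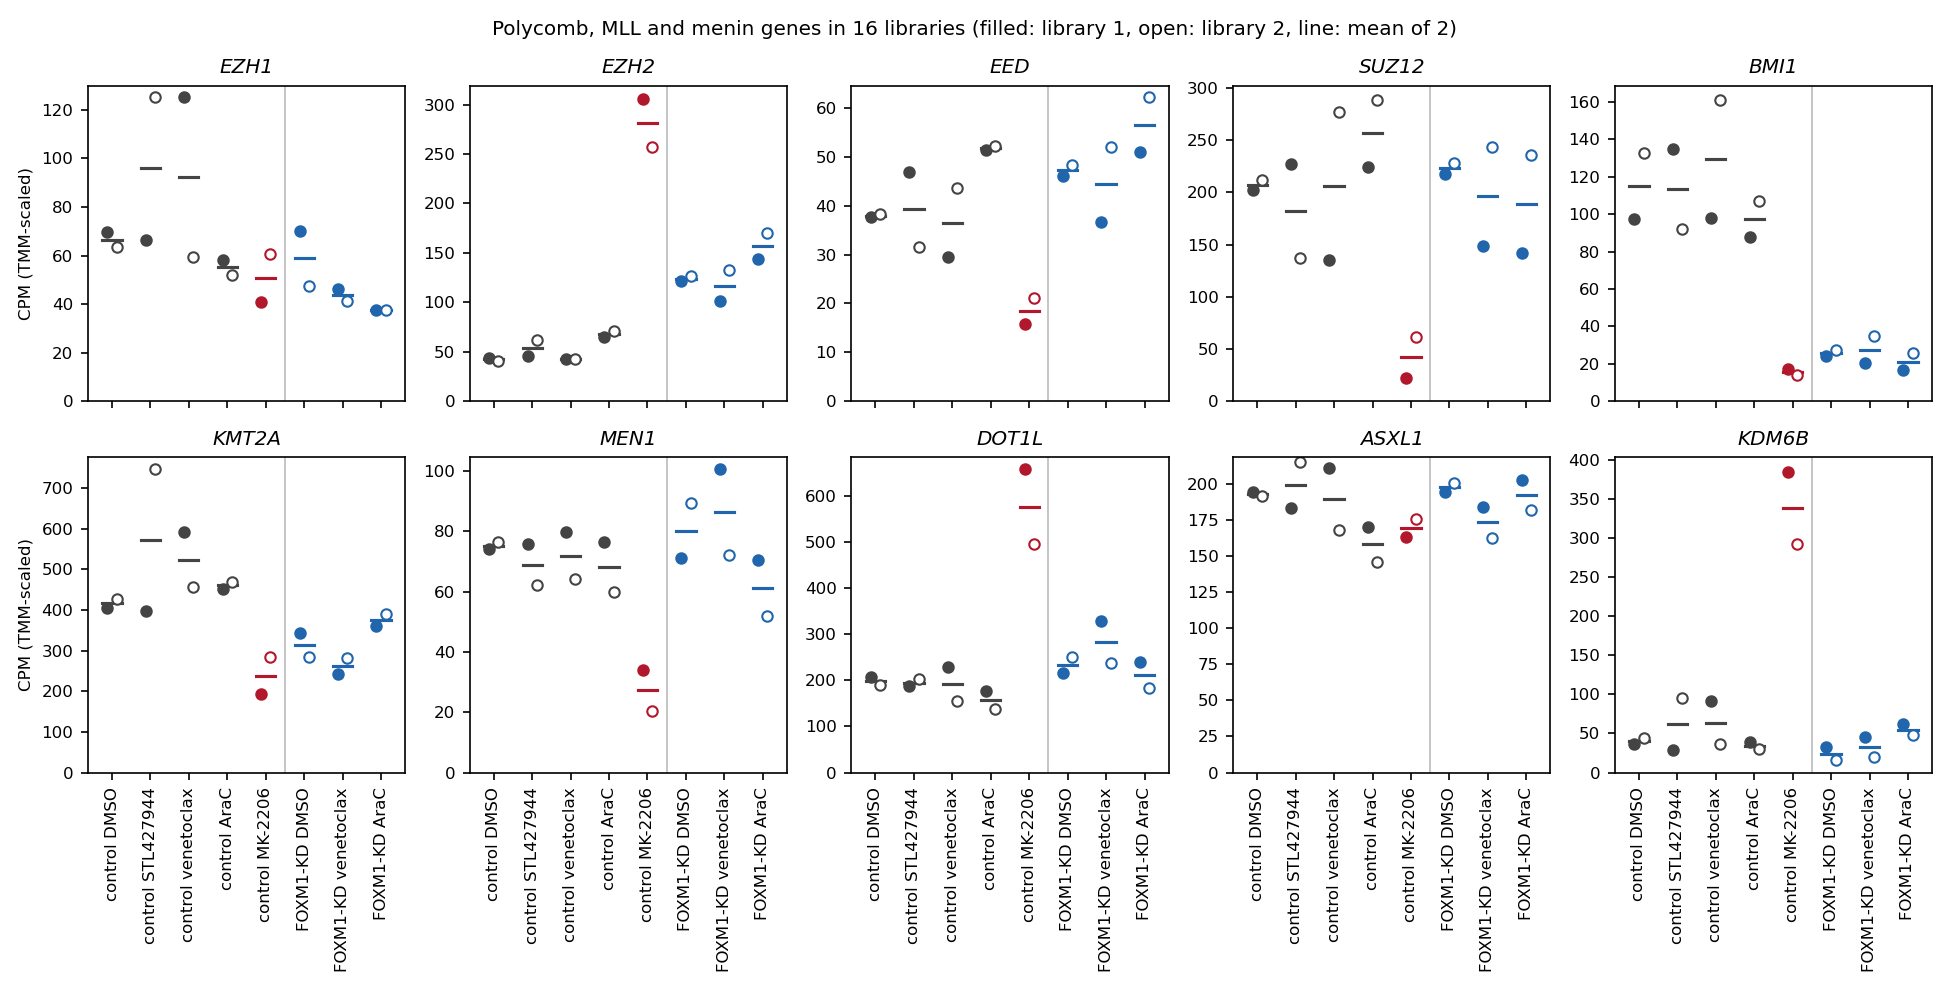
Level of each gene in TMM-scaled CPM (counts relative to the library total, linear axis from 0) in the 2 libraries of every condition, with the mean as a line. EZH2 sits between 40.8 and 70.9 CPM in control cells without MK-2206, between 101.2 and 170.2 CPM in FOXM1-KD cells and at 305.5 and 256.8 CPM after MK-2206, and BMI1 runs the other way.

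MK-2206 gave the largest differences among the 10 genes. EZH2, KDM6B and DOT1L rose, SUZ12, BMI1 and MEN1 fell, and EED, EZH1, KMT2A and ASXL1 were not called. A gene was called at a change of 2-fold or more with an adjusted p below 0.1 (edgeR's quasi-likelihood test, Benjamini-Hochberg over all genes tested), and 6 of the 10 were called against 54.6% of all protein-coding genes, so the share called is near the background.

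Among the PRC2 subunits, EZH2 measured 43.7 and 40.8 CPM with DMSO and 305.5 and 256.8 CPM after MK-2206. The groups did not overlap, and the log2 fold change was 2.80 ± 0.28 (SE; adjusted p = 3.78e-22). SUZ12 measured 202.1 and 211.4 CPM with DMSO against 22.4 and 61.7 CPM after MK-2206. The MK-2206 libraries differed from each other, yet both lay below both DMSO libraries, and SUZ12 fell (log2 fold change -2.21 ± 0.28, adjusted p = 3.16e-14). EED, which reads the methyl mark, measured 37.7 and 38.3 CPM against 15.7 and 21.2 CPM, a log2 difference of -0.97 ± 0.30 that passed the adjusted p (0.00342) and missed the fold. EZH1, the second catalytic subunit, measured 69.6 and 63.6 CPM against 40.8 and 60.8 CPM, with a log2 difference of -0.32 ± 0.28. The ratio of the catalytic subunits thus changed, while EZH1 itself was not called (adjusted p = 0.373). EZH2 per kb was 0.408 and 0.416 times EZH1 with DMSO, and 4.85 and 2.74 times EZH1 after MK-2206.

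BMI1, the PCGF subunit of canonical PRC1, measured 97.2 and 132.5 CPM with DMSO and 17.0 and 13.9 CPM after MK-2206. It fell by 2.83 ± 0.30 on the log2 scale (adjusted p = 1.79e-19), with no overlap. Since 1000 of its exon bases (22.8%) are shared with the read-through gene COMMD3-BMI1, which had 0 to 7 counts in all libraries, its count carries that uncertainty. Its upstream neighbour COMMD3 also fell, by 1.90 ± 0.33 (adjusted p = 4.53e-08).

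MEN1, the menin gene, measured 74.2 and 76.4 CPM with DMSO and 34.1 and 20.5 CPM after MK-2206. It fell by 1.40 ± 0.29 (adjusted p = 6.54e-06). KMT2A, the MLL gene, measured 404.2 and 428.0 CPM against 192.4 and 283.1 CPM, with a log2 difference of -0.73 ± 0.25 (adjusted p = 0.00924) that missed the fold. DOT1L went the other way, from 206.3 and 189.7 CPM to 657.7 and 495.0 CPM, and rose by 1.61 ± 0.25 (adjusted p = 1.29e-09). Counts on DOT1L can include reads of PLEKHJ1, which overlaps 529 of its exon bases on the opposite strand, because the strand setting of the counting is not given in the sources used here. KMT2A likewise shares 5755 exon bases with a second annotated gene on its strand, which has no row in the table used here.

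KDM6B, the lysine 27 demethylase that opposes PRC2, measured 36.7 and 44.0 CPM with DMSO and 384.8 and 292.2 CPM after MK-2206. Its rise of 3.13 ± 0.28 (adjusted p = 2.77e-27) was the largest of the 10 log2 fold changes. ASXL1, a cofactor of the deubiquitinase complex PR-DUB, measured 194.2 and 192.1 CPM against 163.4 and 175.7 CPM, a log2 difference of -0.12 ± 0.26 (adjusted p = 0.703). It varied least across the whole series, from 146.0 to 215.2 CPM. The median protein-coding gene with at least 10 counts on average moved by -0.29 under TMM in this comparison, by -0.51 with total counts only and by -0.18 with DESeq2's size factors, and all 6 calls held under each.

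Because the MK-2206 libraries lay nearer to the FOXM1-KD libraries, they were also set against the FOXM1-KD DMSO libraries, a comparison added after seeing the data, in which 46.8% of protein-coding genes were called. Of the 10 genes, 6 were called there as well. EZH2 (1.21 ± 0.35), DOT1L (1.33 ± 0.35) and KDM6B (3.84 ± 0.39) were higher and SUZ12 (-2.36 ± 0.37), MEN1 (-1.53 ± 0.37) and EED (-1.32 ± 0.38) lower by log2 fold change. BMI1 was not called against that reference (-0.71 ± 0.40, adjusted p = 0.157).

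FOXM1-KD cells were compared with control cells within each treatment. FOXM1 transcripts were still measured at the levels given above, and the same libraries differ in CD34, MPO and many other genes, so a lower FOXM1 level and these differences cannot be told apart. EZH2 rose and BMI1 fell in FOXM1-KD cells with DMSO, with AraC and with venetoclax, and neither MEN1, DOT1L, ASXL1, SUZ12, EED nor KDM6B was called in any of the 3 comparisons. With DMSO 2 of the 10 genes were called against 29.6% of protein-coding genes, with AraC 2 against 33.7%, and with venetoclax 4 against 30.4%. With only 10 genes, none of these shares is read as different from the background.

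EZH2 measured 121.2 and 126.6 CPM in FOXM1-KD cells with DMSO, against 43.7 and 40.8 CPM in control cells, a log2 fold change of 1.56 ± 0.11 (adjusted p = 0.00262). With AraC the values were 143.9 and 170.2 CPM against 65.4 and 70.9 CPM (1.16 ± 0.20, adjusted p = 6.59e-08). With venetoclax they were 101.2 and 132.8 CPM against 42.5 and 42.4 CPM (1.46 ± 0.39, adjusted p = 0.00154). All 6 FOXM1-KD libraries lay above all 8 control libraries without MK-2206. The venetoclax call was lost without FOXM1-KD venetoclax library 2 (1.25, adjusted p = 0.128).

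BMI1 measured 24.3 and 27.2 CPM in FOXM1-KD cells with DMSO against 97.2 and 132.5 CPM in control cells, and fell by 2.14 ± 0.20 (adjusted p = 0.00458). With AraC it measured 16.5 and 25.7 CPM against 87.7 and 107.0 CPM and fell by 2.24 ± 0.23 (adjusted p = 2.40e-21). With venetoclax it measured 20.2 and 34.9 CPM against 97.8 and 161.1 CPM and fell by 2.23 ± 0.41 (adjusted p = 4.96e-07). Again no FOXM1-KD library overlapped the 8 control libraries without MK-2206. COMMD3 fell in the same comparisons (log2 fold changes -1.64 ± 0.15, -1.75 ± 0.25 and -1.66 ± 0.47). Per kb, EZH2 was 0.107 to 0.305 times BMI1 in those 8 control libraries and 1.55 to 3.55 times BMI1 in the 6 FOXM1-KD libraries, and across the 16 libraries their log2 levels had a Pearson correlation of -0.93, a description of libraries that share treatment and line.

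With venetoclax EZH1 and KMT2A were also called lower. EZH1 measured 46.3 and 41.4 CPM in FOXM1-KD cells against 125.4 and 59.3 CPM in control cells (-1.07 ± 0.40, adjusted p = 0.0325), and KMT2A measured 241.7 and 281.6 CPM against 591.7 and 456.5 CPM (-1.0 ± 0.35, adjusted p = 0.0223). The control value of EZH1 rested on venetoclax library 1. Without that library the log2 differences were -0.45 for EZH1 (adjusted p = 0.660) and -0.81 for KMT2A (adjusted p = 0.207), and with the replicate number as a block they were -0.98 and -0.99, under the fold threshold. The differences with DMSO were -0.17 ± 0.21 for EZH1 and -0.40 ± 0.13 for KMT2A, and with AraC -0.59 ± 0.23 and -0.33 ± 0.17.

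The other members did not reach 2-fold in any of these comparisons. SUZ12 gave log2 differences of 0.12 ± 0.10, -0.48 ± 0.18 and -0.07 ± 0.36 with DMSO, AraC and venetoclax, and EED 0.33 ± 0.11, 0.09 ± 0.22 and 0.28 ± 0.41. MEN1 gave 0.10 ± 0.15, -0.20 ± 0.22 and 0.26 ± 0.39, DOT1L 0.24 ± 0.13, 0.38 ± 0.19 and 0.56 ± 0.36, and ASXL1 0.04 ± 0.09, 0.24 ± 0.19 and -0.13 ± 0.36. KDM6B gave -0.74 ± 0.36, 0.64 ± 0.23 (adjusted p = 0.0147) and -0.95 ± 0.41 (adjusted p = 0.0779), differing in sign between AraC and the other treatments.

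**Figure D2:**
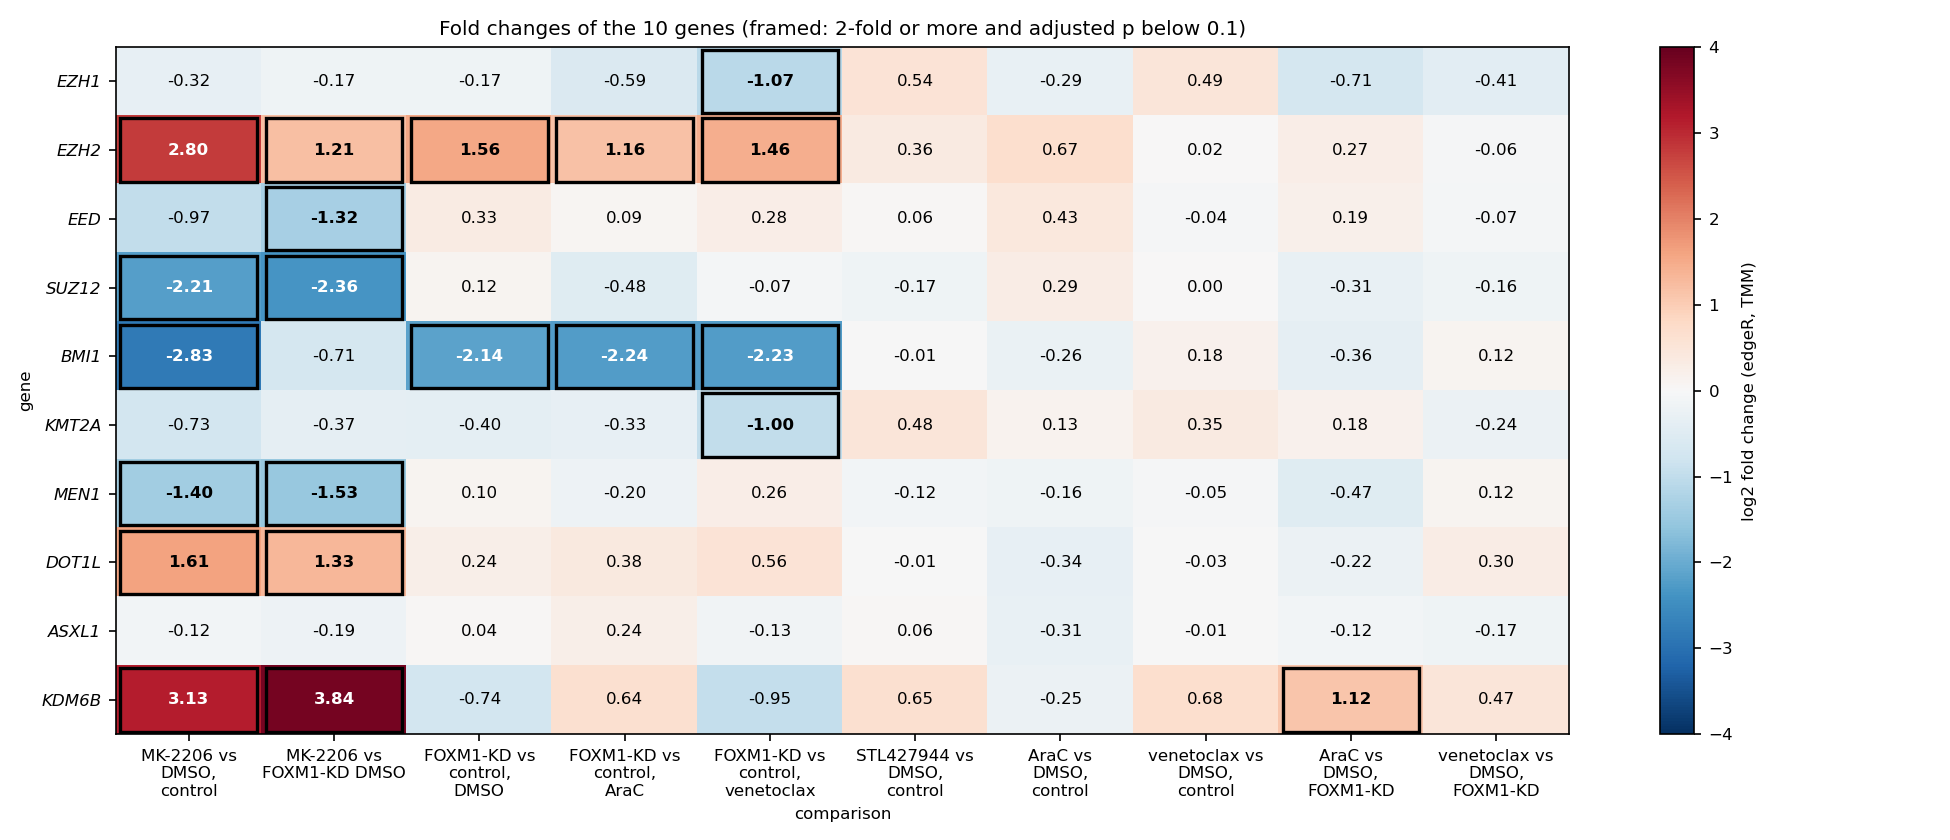
Log2 fold change of each gene (rows) in 10 comparisons (columns, edgeR with TMM), with calls framed. EZH2 and BMI1 are framed in all 3 FOXM1-KD comparisons, and 6 genes are framed for MK-2206 against control DMSO.

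AraC moved KDM6B in FOXM1-KD cells. In control cells no member was called under edgeR or DESeq2, against 8.16% of protein-coding genes, although 5 of the 10 had an unadjusted p under 0.05 by edgeR. EZH2 had the smallest adjusted p there, with 65.4 and 70.9 CPM after AraC against 43.7 and 40.8 CPM (log2 difference 0.67 ± 0.14, adjusted p = 0.00374). EED measured 51.4 and 52.2 CPM against 37.7 and 38.3 CPM (0.43 ± 0.14, adjusted p = 0.0523). In both genes the AraC libraries lay above the DMSO libraries without reaching 2-fold.

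In FOXM1-KD cells KDM6B measured 61.6 and 48.4 CPM after AraC against 32.1 and 16.0 CPM with DMSO and rose by 1.12 ± 0.29 (adjusted p = 0.00184), the only call among the 10 genes in a comparison that called 14.3% of protein-coding genes. In control cells it measured 38.8 and 30.0 CPM after AraC against 36.7 and 44.0 CPM (-0.25 ± 0.17). The AraC effect on KDM6B differed between the lines by 1.44 ± 0.31 on the log2 scale (interaction term over 8 libraries, adjusted p = 0.000266), again the only call of the 10 against 7.18% of protein-coding genes. The rise in FOXM1-KD cells was no longer called without AraC library 1 (0.95), without AraC library 2 (1.27, adjusted p = 0.374) or without DMSO library 2 (0.70). The interaction was lost without control AraC library 1 (1.65, adjusted p = 0.145), control AraC library 2 (1.26, adjusted p = 0.382), FOXM1-KD AraC library 1 (1.25, adjusted p = 0.204) or FOXM1-KD DMSO library 2 (0.89, adjusted p = 0.0696).

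Venetoclax and STL427944 gave no calls among the 10 genes. In control cells neither edgeR nor DESeq2 called a member with either drug, no member had an unadjusted p under 0.05 by edgeR, and 0% of protein-coding genes were called with either. With venetoclax in FOXM1-KD cells 0 of the 10 were called by either tool and 0 had an unadjusted p under 0.05, against 2.84% of protein-coding genes called. The venetoclax effect did not differ by the call between the lines for any member (0 called by either tool, 1 with an unadjusted p under 0.05, 1.1% of protein-coding genes called), the smallest p being that of EZH1 at a log2 difference of -0.89 ± 0.42 (adjusted p = 0.919).

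The spread between libraries in these conditions was large for some members. KDM6B measured 28.9 and 95.6 CPM with STL427944 and 91.9 and 35.9 CPM with venetoclax in control cells. EZH1 measured 66.4 and 125.5 CPM and 125.4 and 59.3 CPM in the same order. STL427944 library 2 and venetoclax library 1 were thus high together for KDM6B and EZH1, and both were low for SUZ12, at 137.3 and 134.8 CPM against 227.5 and 276.5 CPM in their partners. Without STL427944 library 1, KDM6B would be called higher than DMSO (1.28, adjusted p = 0.0874).

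The same kind of split followed the replicate number. In all 5 conditions with numbered libraries, library 1 was below library 2 for SUZ12, by 0.36 to 1.46 log2 units, and for EED, by 0.02 to 0.56. In the same 5 conditions library 1 was above library 2 for KDM6B, by 0.35 to 1.36, for MEN1, by 0.31 to 0.74, and for DOT1L, by 0.35 to 0.56. BMI1 was lower in library 1 in 4 of 5 conditions. Over the 16 libraries SUZ12 correlated at 0.90 with EED, at -0.91 with DOT1L and at -0.91 with KDM6B (Pearson's r of log2 levels), which includes both the MK-2206 shift and this split.

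**Figure D3:**
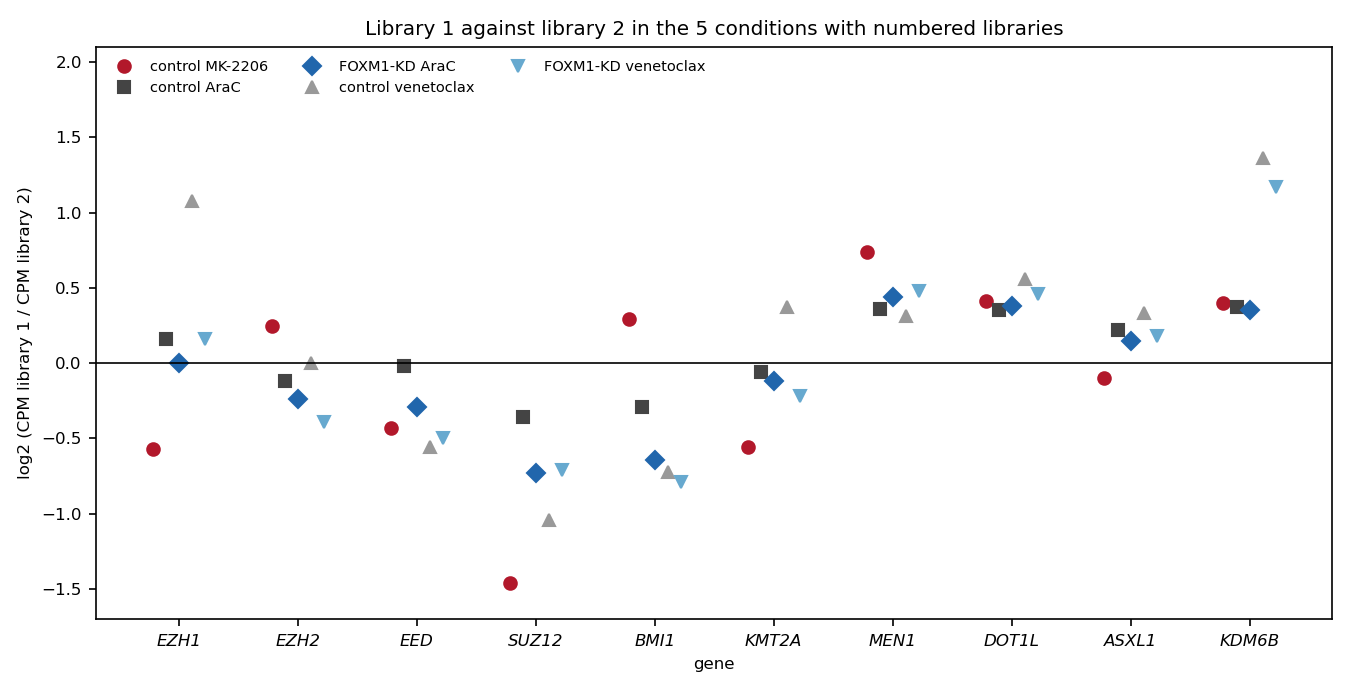
Log2 ratio of the CPM of library 1 to library 2 for each gene in the 5 conditions whose libraries are numbered in the labels (symbols). SUZ12 and EED lie below 0 and MEN1, DOT1L and KDM6B above 0 in all 5.

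The genes whose pattern over the 16 libraries was most like that of EZH2, among 9585 protein-coding genes with at least 10 CPM on average, were BCL2L11 (Pearson's r = 0.987), NBPF26 (0.981), PTGER4 (0.977), C18orf25 (0.977) and TOB1 (0.976). Those most like KDM6B were HECTD4 (0.979), ZSWIM8 (0.975), NFKBIA (0.967), NEU1 (0.964) and MIB2 (0.961). The libraries share treatments and lines, so these values describe the libraries.

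The wider set of 88 genes holds the 10 themselves, their partners and menin-MLL target genes. Its counts therefore include the calls of the 10. After MK-2206 18 of the 88 rose and 35 fell, 60.2% in all against the 54.6% of protein-coding genes given above, and their median log2 fold change was -0.72. The 88 include EZHIP (2 and 3 counts after MK-2206) and ASXL3 (1 and 7 counts). Both had 0 counts in the control libraries without MK-2206 and entered that comparison through the MK-2206 libraries alone. Both are counted among the 18 that rose, so the 60.2% rests in part on them and is not read as different from the background. In FOXM1-KD cells 9 rose and 14 fell with DMSO, 9 rose and 14 fell with AraC, and 9 rose and 18 fell with venetoclax, which is 26.7%, 26.4% and 31.0% of the list genes tested, against 29.6%, 33.7% and 30.4% of protein-coding genes.

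Of the 9 other genes of the PRC2 list, 5 fell and 3 rose after MK-2206. The list counts given here include EZHIP, which had 2 and 3 counts after MK-2206 and 0 counts in every other library. It was tested only through the MK-2206 libraries and is counted among the genes that rose. The histone-binding subunit RBBP7 (-2.05 on the log2 scale) and MTF2 (-1.96), an accessory subunit that recruits PRC2 to CpG islands, fell beside SUZ12, while the accessory subunits PHF1 (2.24) and EPOP (1.21) rose beside EZH2. In FOXM1-KD cells JARID2, which recruits PRC2, fell with DMSO, AraC and venetoclax (-1.65, -1.43 and -1.53). Of the PRC2 list 4 of 13 genes were higher and 6 lower by the call after MK-2206 (76.9%, against 54.6% of protein-coding genes). That share counts EZHIP and is not read as different from the background.

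Among the PRC1 genes the chromobox gene CBX2 fell most after MK-2206 (-5.55), ahead of BMI1 and PCGF6 (-1.96), and PCGF1 (1.84) and PCGF3 (1.02) rose. In FOXM1-KD cells CBX2 (-3.17, -2.45 and -3.83 with DMSO, AraC and venetoclax) and the polyhomeotic gene PHC1 (-1.78, -1.23 and -2.54) fell. PCGF2, the closest paralog of BMI1, was called higher in all 3, at 12 to 71 counts against 0 to 11 counts in control cells without MK-2206, a low level beside that of BMI1.

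The MLL complex genes ASH2L (-3.39), PSIP1 (-3.29) and WDR5 (-3.06) fell after MK-2206, and CXXC1 (1.18), a CpG-binding subunit of the SETD1 complexes, rose. In FOXM1-KD cells with DMSO, AraC and venetoclax, ASH2L (-1.87, -1.49 and -2.07) and PSIP1, which with menin tethers MLL (-1.21, -1.45 and -1.94), fell, whereas CXXC1 rose (1.06, 1.05 and 1.29). Around DOT1L, MLLT3, a YEATS-domain partner, fell after MK-2206 (-4.80) and in FOXM1-KD cells (-4.46, -4.34 and -5.18). MLLT1 (-1.49) and MLLT6 (-1.23) also fell after MK-2206, where the elongation factor gene ELL2 (3.48) rose with DOT1L.

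In the PR-DUB list OGT (2.42), MBD6 (2.03) and ASXL2 (1.14) rose and FOXK1 (-1.12) fell after MK-2206, and MBD6 rose by 1.54, 1.73 and 1.31 in FOXM1-KD cells. Of the demethylases KDM5C (1.43) and KDM6A (1.37) rose beside KDM6B after MK-2206, and KDM1A (-1.72) and KDM5B (-2.16) fell. KDM5B, a lysine 4 demethylase, also fell in FOXM1-KD cells (-3.02, -2.61 and -2.68).

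The menin-MLL target genes differed among themselves. MEIS1 and HOXA9 were near 0 in the libraries in which CD34 was near 0. MEIS1 had 545 to 1084 counts in the 8 control libraries without MK-2206, 0 to 2 counts in FOXM1-KD cells, and 2 and 8 counts after MK-2206. HOXA9 had 484 to 1390, 2 to 16, and 3 and 10 counts in the same order. MEIS1 (-6.15), HOXA9 (-5.83) and HOXA10 (-3.01) fell most after MK-2206. Of the 8 listed targets 6 were called, all lower (75.0%), FLT3 (0.77) and JMJD1C (0.89) not being called. Among protein-coding genes 54.6% were called in either direction, and 4296 of 17653 were called lower. In FOXM1-KD cells 4 targets were called lower and 1 higher with DMSO and with AraC, and 4 lower and 0 higher with venetoclax. These are 62.5%, 62.5% and 50.0% of the 8, against 29.6%, 33.7% and 30.4% of protein-coding genes called in either direction. Called lower were 2478 of 15327, 2618 of 16031 and 2626 of 16207 protein-coding genes. The 8 were chosen with earlier results known, so these shares are a description only. PBX3, the cofactor of HOXA9 and MEIS1, fell in FOXM1-KD cells (-3.20, -2.18 and -3.08), as did MEF2C (-2.77, -2.57 and -3.45). FLT3 went the other way and rose with DMSO (2.97) and AraC (1.69), with 0.39 and no call with venetoclax. HOXA10 was not called in FOXM1-KD cells (-0.14, -0.63 and 0.20), nor were CDK6 and JMJD1C. MEIS1, HOXA9, PBX3 and MEF2C were thus low in the FOXM1-KD libraries. There MEN1 and DOT1L were not called, KMT2A was called lower with venetoclax only (-1.0 ± 0.35), and PSIP1, ASH2L and MLLT3 fell with every treatment. A link between these levels and the target genes was not tested.

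The list genes called with the other drugs are named after their values were seen. With AraC 3.49% of the list genes tested were called in control cells and 3.45% in FOXM1-KD cells. The shares of protein-coding genes were 8.16% and 14.3%. With venetoclax in FOXM1-KD cells 2.3% of the list genes were called, against 2.84% of protein-coding genes. In control cells AraC gave EPOP (1.09), PCGF2 (2.95, at 0 to 11 counts) and FLT3 (1.21), all higher. In FOXM1-KD cells AraC gave PCGF2 (1.86) and KDM6B higher and CBX6 (-1.09) lower, and venetoclax gave ELL2 (1.77) higher and FLT3 (-1.98) lower. STL427944 and venetoclax gave 0 of the 86 list genes tested in control cells, where 0% of protein-coding genes were called with either.

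**Figure D4:**
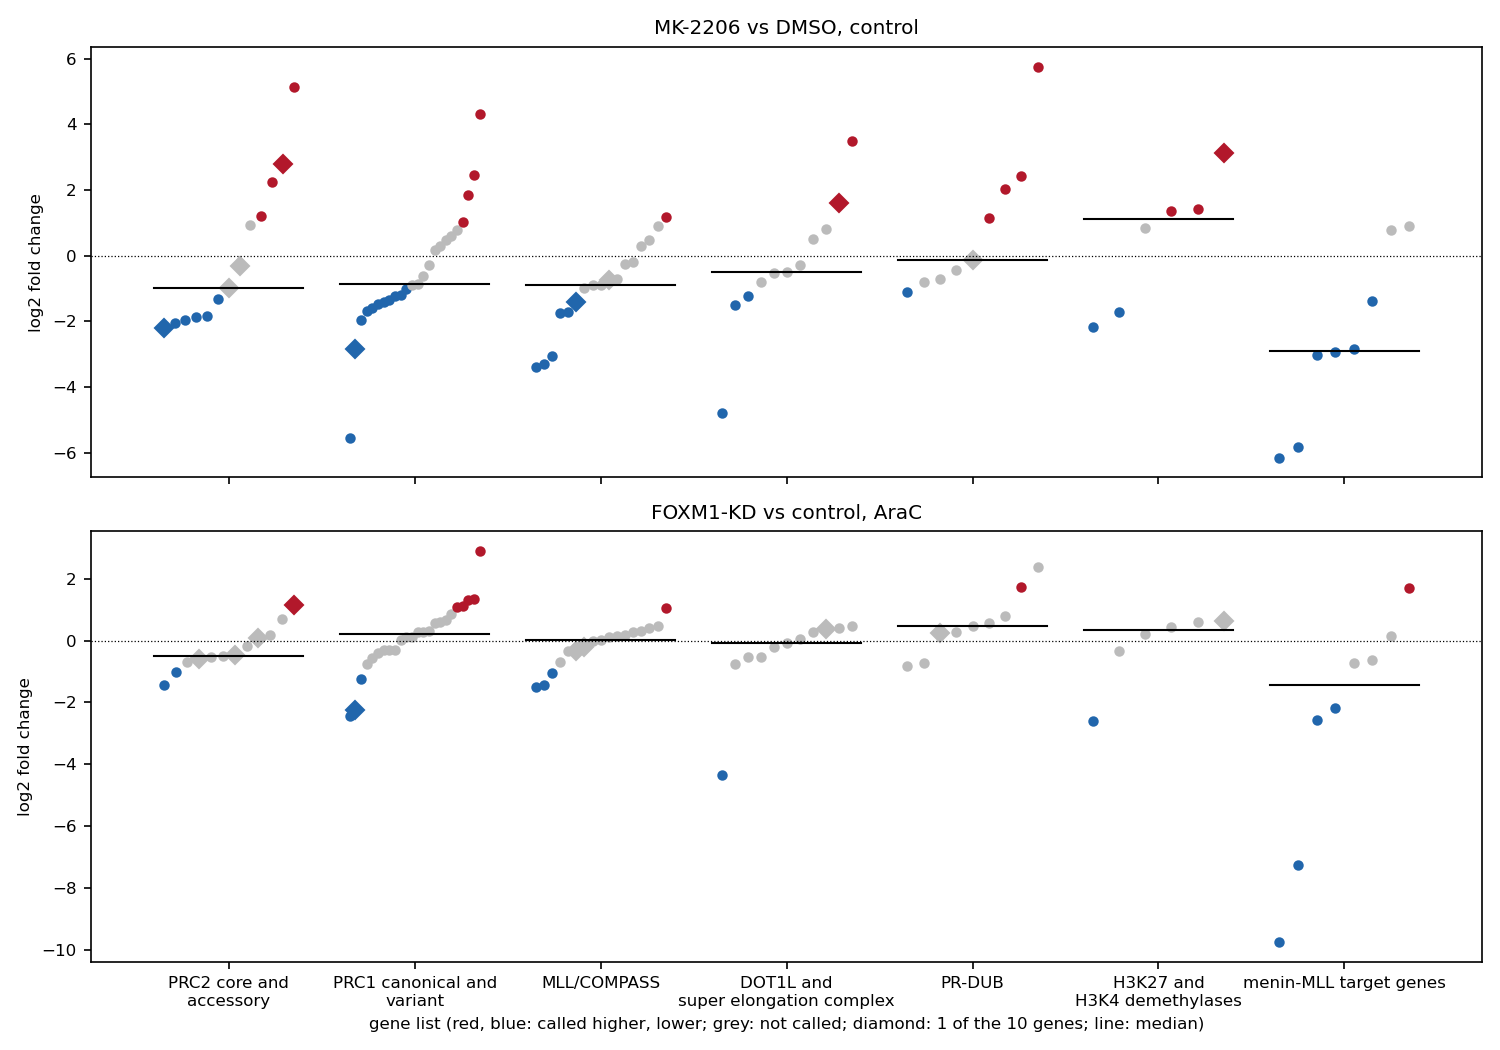
Log2 fold change of the tested genes of 7 lists (x axis) for MK-2206 against DMSO in control cells and for FOXM1-KD against control cells with AraC, with called genes coloured, the 10 genes as diamonds and list medians as lines. The median of the 8 menin-MLL targets is -2.89 in the upper panel and -1.44 in the lower panel.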

How the data were processed

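RNA-seq of 16 KG-1 libraries, 2 in each of 8 conditions, was analysed from 1 table. The authors aligned reads to hg38 with STAR, counted them per Ensembl gene with featureCounts and deposited the raw counts without normalization, per the labels and the study's methods. The study describes a stranded kit with molecular identifiers and the labels name another kit, and whether identifiers were used in counting is not given in the sources used here, so counts are taken as reads and depth covers counting error only.

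Each comparison was fitted to its own 4 libraries by the quasi-likelihood method of edgeR 4.0.16 in R 4.3.3, after TMM scaling. Every gene that had 1 count or more was kept, and p-values were adjusted by Benjamini-Hochberg. Whether a drug acted differently in the 2 lines was read from an interaction term over 8 libraries. Genes were called at 2-fold or more and an adjusted p below 0.1, and the background is all protein-coding genes of GENCODE release v44. CPM use TMM-scaled totals, and CPM per kb divide by the union exon length. Totals ran from 7351755 to 21362546, so the MK-2206 libraries measure low genes least precisely. Libraries of every condition differed by more than sampling noise (chi-square per degree of freedom 9.30 to 114) and each counted as 1.

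Libraries with the same number in the labels deviated together from their group means (correlations 0.531 to 0.856 over 9585 genes in 10 pairs of numbered groups), so the numbers were taken to pair them. The main fits did not use this pairing, so their p-values are unpaired. It entered only as the replicate block, an alternative setting. DMSO and STL427944 libraries carry no numbers.

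The 10 genes and all lists were chosen with earlier results of these data known. Named beside them were FOXM1, CD34, list genes called in the same direction in all 3 FOXM1-KD comparisons, the 3 called list genes per list that rose and fell most after MK-2206 with at least 10 counts on average, and the 5 genes most like EZH2 and KDM6B. A list gene that this rule names is not reported here. COMMD3, FLT3, JMJD1C, CDK6 and the list genes called with the other drugs were named after their values were seen. Alternatives were DESeq2 1.42.0, filterByExpr, size factors from DESeq2 or plain totals in place of TMM, all 16 libraries in 1 fit, the adjusted p across all 8 groups, a threshold of 0.05, the replicate block and leaving out each library. Figures were drawn with matplotlib 3.10.9 in Python 3.11.15.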

Additional observations from a re-analysis of the deposited data

Results flagged for a closer look

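The AraC effect on KDM6B differed between FOXM1-KD and control cells, by 1.44 ± 0.31 on the log2 scale in the interaction test. KDM6B measured 61.6 and 48.4 CPM after AraC against 32.1 and 16.0 CPM with DMSO in FOXM1-KD cells, and 38.8 and 30.0 CPM against 36.7 and 44.0 CPM in control cells. Leaving out each library in turn gave differences from 0.89 to 2.03, and the call was lost in several of these fits, as given above. The 0.89 came without FOXM1-KD DMSO library 2, whose 16.0 CPM was the lowest KDM6B value of the 16 libraries. Groups of 2 libraries were too small to name an outlying library.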

How the results depend on the processing

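Calls with 2 libraries per group depended most on which libraries were in the fit. Leaving out each library in turn gave 0 to 1 of the 10 genes called for STL427944 in control cells, 1 to 5 for FOXM1-KD with venetoclax, 0 to 1 for AraC in FOXM1-KD cells and 0 to 1 for the AraC interaction. Over the 88 list genes it gave 0 to 1 for STL427944 and 0 to 3 for AraC in control cells, and 0 to 7 for AraC and 0 to 1 for venetoclax in FOXM1-KD cells. A left-out library can leave 1 sample in a group, which is then assumed to vary like the others. With the replicate number as a block, FOXM1-KD with venetoclax gave 2 of the 10 genes in place of 4, EZH1 and KMT2A falling under the 2-fold threshold, and with AraC the block left EZH2 (1.16) and BMI1 (-2.26) called. No paired analysis was possible for the DMSO and STL427944 comparisons because their libraries carry no numbers. Of 191 values of called genes under an alternative, 172 kept direction and call, 19 kept direction and lost the call, and 0 changed sign. KMT2A with venetoclax was -0.99 with DESeq2 and with DESeq2's size factors, under the fold threshold. EED after MK-2206 was called with total counts only (-1.20) and with all 16 libraries in the fit (-1.04), and KDM6B in FOXM1-KD cells with venetoclax was called with total counts only (-1.08). Of 1109 values of genes not called, 10 became called and 73 changed sign without a call. With the FOXM1-KD DMSO libraries as the reference of MK-2206, added after seeing the data, BMI1 lost its call (-0.71) and EED gained one (-1.32).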
